A study of Mus musculus with 23 samples.

Results

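The comparison described here is that of dorsal skin painted with AG825 and taken 24 h after ultraviolet irradiation (UV) against dorsal skin painted with AG825 and sham-irradiated. Its members are the arrays whose titles give these treatments, 7 of the 23 arrays of the series: 3 at 24 h after UV (replicates A, B and C) and 4 sham arrays (replicates B, C, D and E). Every probe set of the deposited log2 table was compared, 19645 in all. The study asked how the receptor kinase Erbb2 bears on the skin's response to UV, and its remaining 16 arrays hold AG825 skin at 6 h after UV and DMSO skin after sham and at 6 h and 24 h after UV.

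All groups are skin of adult female CD-1 mice, an outbred stock, so the animals are not genetically identical. The back had been clipped and later shaved, and 4 mg of AG825 in the solvent DMSO, or DMSO alone, was painted on 2 h before 10 kJ/m2 of UV (30% UVA and 70% UVB) or a sham exposure. AG825 is a tyrphostin that blocks the tyrosine kinase of Erbb2, and both the UV and the sham skin compared here had received it. UV skin was taken at 24 h, but sham skin at 6 h. UV and the longer time after painting and shaving therefore cannot be told apart in any comparison of 24 h with sham. The time of day at harvest may differ as well. The labels do not state whether the replicates are separate animals, so each p-value weighs a difference against the spread of these samples alone, which may be technical.

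UVB damages DNA and lipids in the epidermis, and injured keratinocytes release cytokines and chemokines that draw neutrophils and then monocytes into the dermis. Interferon-response genes, immediate early genes and matrix proteases are commonly switched on in such skin, and the programme of cornification in the upper epidermis is disturbed. Erbb2 has no known ligand of its own and signals by pairing with Egfr, Erbb3 or Erbb4, whose ligands (Epgn, Tgfa, Hbegf and others) are made by keratinocytes.

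The 7 arrays carried the marker genes of full-thickness skin. The keratinocyte markers Krt5, Krt14, Krt1, Krt10 and Lor were called present on all 7 arrays and lay at or above the 99th percentile of sham levels, and the skeletal muscle, fibroblast and hair follicle markers were also present on all 7. Of 7 measured neutrophil markers 2 were present on all 7 arrays, and Cxcr2 and Ltf were present on none. Present calls were made for 70.9 ± 0.679% of probe sets at 24 h (SD, n = 3) and 69.2 ± 1.29% in sham skin (SD, n = 4). Over all probe sets, Pearson's r was 0.984 to 0.992 for pairs of 24 h arrays, 0.970 to 0.991 for pairs of sham arrays and 0.960 to 0.980 for a 24 h array paired with a sham array. Sham replicate D stood somewhat apart, with r of at most 0.973 to the other sham arrays. Because whole skin was profiled, fewer cells of a type and less RNA per cell cannot be told apart.

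At 24 h after UV, AG825 skin held more RNA of chemokines, acute-phase proteins, macrophage and monocyte receptors and interferon-response genes than AG825 sham skin, and less RNA of cornified envelope genes and of the Langerhans cell lectin Cd207. By limma with Benjamini-Hochberg adjustment over all probe sets, 952 probe sets (4.85%) passed an adjusted p of 0.05, of which 659 rose (3.35%) and 293 fell (1.49%). On GCOS signal, another of the deposited summaries of these arrays, 401 rose and 66 fell at a pseudocount of 16, and 327 rose and 53 fell at a pseudocount of 1. With the brightest probe set standing for each of 12106 genes, 700 genes passed (5.78%), 517 genes rose (4.27%) and 183 fell (1.51%), and the median log2 difference of all genes was -0.06. At least a 2-fold difference was reached by 235 of the risen genes and 27 of the fallen genes. The median log2 difference of the probe sets that passed was 0.92 for rises and -0.62 for falls. Of 21 genes of epidermal differentiation and the cornified envelope, 4 fell. Without sham replicate B or E or any 24 h array, 1 did.

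The count depended on each array. It was 333 without 24 h replicate A, 568 without 24 h replicate B and 620 without 24 h replicate C. It was 634, 499, 1670 and 537 without sham replicate B, C, D and E in turn. Of the 700 called genes, 225 (32.1%) passed in the same direction in all 7 of these fits, which were 199 of the 517 rises and 26 of the 183 falls. On dChip signal, another summary of the same arrays, 325 of the 517 rises and 46 of the 183 falls passed. The single called genes Gzmb, Cd86, Rrm1, Birc5 and Acer1, described further on, did not pass on dChip or GCOS signal.

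**Figure D1:**
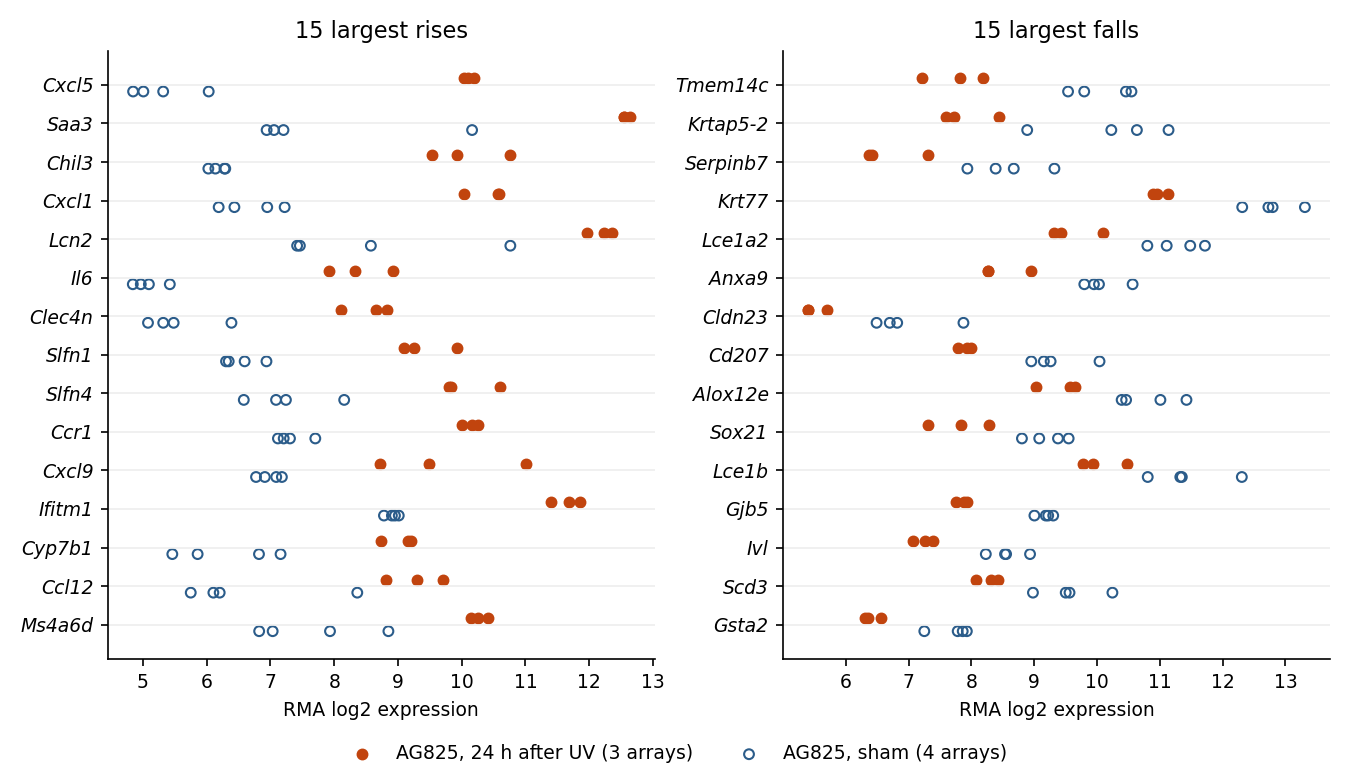
RMA log2 expression (horizontal axis) of the 15 genes with the largest rises (left) and the 15 with the largest falls (right) among called genes whose 7 arrays did not overlap, with filled points for the 3 AG825 arrays at 24 h after UV and open points for the 4 AG825 sham arrays. Cxcl5 lies between 10.04 and 10.19 at 24 h and between 4.85 and 6.03 in sham skin, while 1 sham array, replicate E, is high for Saa3 (10.16) and Lcn2 (10.76).

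The largest rise among called genes whose arrays did not overlap was that of a chemokine, Cxcl5. Of 25 measured chemokines, 15 rose and 1 fell, where 4.27% of all genes rose, and the list's median log2 difference was 1.495, against -0.06 for all genes. Without 24 h replicate A, 8 of them rose. Cxcl5, which attracts neutrophils through the receptor Cxcr2 and is made by epithelial cells, read 10.19, 10.10 and 10.04 on the 3 arrays at 24 h, against 5.01, 5.32, 4.85 and 6.03 on the 4 sham arrays (log2). It was 28-fold higher at 24 h, with a log2 difference of 4.81 ± 0.34 (SE), adjusted p = 7.04e-08 (limma). The 24 h arrays lay within 0.15 of each other, and the sham arrays spread over more than 1 log2 unit far below them.

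Cxcl1, a second Cxcr2 ligand, read 10.57, 10.58 and 10.04 on the 3 arrays at 24 h, against 6.19, 6.95, 6.43 and 7.22 on the 4 sham arrays (log2), a rise of 3.70 ± 0.38 (SE), adjusted p = 8.8e-06 (limma), or 13.0-fold. Cxcl2, the third, was uneven at 24 h: 9.79, 10.37 and 7.75 on the 3 arrays at 24 h, against 7.34, 7.29, 6.33 and 6.39 on the 4 sham arrays (log2). Its rise of 2.47 ± 0.53 (SE), adjusted p = 0.00848 (limma) was lost without 24 h replicate A (adjusted p = 0.0707) or replicate B (adjusted p = 0.0667), and replicate C lay within 0.5 of the highest sham arrays. Among ligands for monocyte receptors, Ccl7 rose by 2.05 (adjusted p = 0.00333, limma) and Ccl6, a mouse chemokine of the same class, by 1.77 (adjusted p = 0.00403, limma), and both held in all 7 leave-one-out fits. Ccl2, the main monocyte attractant, rose by 1.72 (adjusted p = 0.0214, limma) and Ccl8 by 1.90 (adjusted p = 0.0249, limma), but each passed in 1 of the 7 leave-one-out fits, that without sham replicate D. Ccl12, a mouse relative of Ccl2, rose by 2.66 (adjusted p = 0.00987, limma), a call lost without 24 h replicate A.

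Chemokines stored in platelets were also higher. Pf4 read 12.44, 12.23 and 11.31 on the 3 arrays at 24 h, against 10.03, 10.17, 11.31 and 10.09 on the 4 sham arrays (log2), a rise of 1.59 ± 0.35 (SE), adjusted p = 0.00911 (limma), and sham replicate D reached the level of 24 h replicate C. Without 24 h replicate A the call was lost. Ppbp rose by 1.5 (adjusted p = 0.0403, limma) and passed in 2 of 7 leave-one-out fits, those without sham replicate D and without 24 h replicate C. Ccl3, a monocyte and neutrophil attractant, was absent on all 4 sham arrays and at least 2.29-fold higher at 24 h, just short of the threshold (adjusted p = 0.0504, limma; 0.0141 without 24 h replicate C). Others that did not pass were Ccl4, the eosinophil attractant Ccl11, the B cell attractant Cxcl13 and Cxcl14, Cxcl16, Cxcl11 and Ccl20, with log2 differences between -0.46 (Ccl20) and 0.87 (Ccl11).

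Cxcl12, which guides cells that carry the receptor Cxcr4, read 12.33, 12.17 and 12.42 on the 3 arrays at 24 h, against 10.59, 10.96, 10.99 and 11.22 on the 4 sham arrays (log2), a rise of 1.37 ± 0.20 (SE), adjusted p = 0.000388 (limma). Cxcr4 itself rose by 1.18 (adjusted p = 0.000535, limma), with 7.74, 8.10 and 7.83 at 24 h and 6.38 to 7.07 in sham skin. Ligand and receptor were thus each higher on every 24 h array than on any sham array. Ccl5, a T cell and monocyte attractant, rose by 1.40 (adjusted p = 0.00366, limma). Ccl22, which is made by dendritic cells and attracts T cells, was the fallen member: it read 7.38, 7.45 and 7.41 on the 3 arrays at 24 h, against 8.31, 8.10, 8.84 and 8.34 on the 4 sham arrays (log2), a log2 difference of -0.98 ± 0.15 (SE), adjusted p = 0.000457 (limma). Ccl17, which shares the receptor of Ccl22, gave -0.29 (adjusted p = 0.501, limma), with overlapping arrays.

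Of 18 cytokine and prostaglandin genes 5 rose and none fell, where 4.27% of all genes rose. The list median was 0.25, and 3 rose without 24 h replicate A. Il6, a cytokine that drives the acute-phase response, read 8.92, 8.33 and 7.91 on the 3 arrays at 24 h, against 5.09, 4.97, 5.42 and 4.84 on the 4 sham arrays (log2), a 9.90-fold rise with a log2 difference of 3.31 ± 0.49 (SE), adjusted p = 0.000417 (limma). Il1b, the secreted interleukin-1 of myeloid cells and keratinocytes, read 11.00, 10.93 and 10.07 on the 3 arrays at 24 h, against 8.20, 8.59, 8.46 and 8.60 on the 4 sham arrays (log2), a rise of 2.21 ± 0.33 (SE), adjusted p = 0.000448 (limma). In both genes the lowest 24 h array was replicate C, and it still lay well above every sham array. Il4ra, the shared receptor chain for interleukins 4 and 13, rose by 1.66 (adjusted p = 0.00159, limma). Ptgs2, the inducible cyclooxygenase, rose by 1.5 (adjusted p = 0.0121, limma), but the call was lost without 24 h replicate A, and its other probe set differed by 0.03.

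The promoters of Cxcl1 and Il6 are shown because both genes rose in all 7 leave-one-out fits and both carry GGG and TTCC with any 3 bases between them, a form of the site bound by NF-kappaB factors. Capitals mark every match on either strand. In Cxcl1 there are 3 matches, of which an overlapping pair lies on opposite strands of the same stretch, and in Il6 there is 1. The sequences run from 250 bases before to 50 bases after the gene start in RefSeq (GRCm38.p6), for Cxcl1 at chr5:90890995-90891294, plus strand, and for Il6 at chr5:30012864-30013163, plus strand.
Cxcl1: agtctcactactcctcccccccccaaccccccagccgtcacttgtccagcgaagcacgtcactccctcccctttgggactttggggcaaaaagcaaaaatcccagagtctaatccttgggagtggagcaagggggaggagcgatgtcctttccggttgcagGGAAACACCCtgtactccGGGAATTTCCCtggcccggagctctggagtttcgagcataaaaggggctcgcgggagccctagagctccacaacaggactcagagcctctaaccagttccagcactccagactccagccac
Il6: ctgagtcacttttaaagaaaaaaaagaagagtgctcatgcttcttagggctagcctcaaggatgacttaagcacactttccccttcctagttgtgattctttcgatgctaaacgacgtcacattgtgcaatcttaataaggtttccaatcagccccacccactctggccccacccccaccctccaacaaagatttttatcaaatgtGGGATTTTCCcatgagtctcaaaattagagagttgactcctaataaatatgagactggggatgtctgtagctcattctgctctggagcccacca
Cxcl2 also has 3 matches. The pattern was found in 5 of the 17 chemokine promoters listed, in 47 of the 404 listed for genes that rose (11.6%) and in 4 of the 141 for genes that fell (2.84%), against 5.52% of the 27025 genes in the table. Among the 9654 promoters listed for measured genes the share was 6.01%. A match is a description of these letters and not evidence of binding.

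Of 15 acute-phase and innate secreted proteins 7 rose, none fell and 8 did not pass, where 4.27% of all genes rose. The median was 1.38. Saa3, the serum amyloid made locally by macrophages and epithelia, read 12.64, 12.54 and 12.55 on the 3 arrays at 24 h, against 7.20, 6.94, 7.06 and 10.16 on the 4 sham arrays (log2), a 26.6-fold rise (4.73 ± 0.70 (SE), adjusted p = 0.000417, limma). Sham replicate E stood more than 2 log2 units above the other sham arrays, yet below every 24 h array. Lcn2, an iron-sequestering antibacterial protein, showed the same layout, with 12.23, 12.36 and 11.97 on the 3 arrays at 24 h, against 7.46, 7.42, 8.58 and 10.76 on the 4 sham arrays (log2) and a rise of 3.63 ± 0.71 (SE), adjusted p = 0.00388 (limma). S100a9, a neutrophil and keratinocyte alarmin, read 13.13, 13.21 and 13.37 on the 3 arrays at 24 h, against 9.10, 9.28, 9.66 and 13.25 on the 4 sham arrays (log2). The sham array of replicate E lay among the 24 h arrays, and the difference of 2.91 did not pass (adjusted p = 0.107, limma); without that array it was 3.89 (adjusted p = 0.0241, limma).

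Chil3, a chitinase-like protein of activated macrophages, was called absent on all 4 sham arrays and was at least 14.9-fold higher at 24 h (adjusted p = 8.52e-05, limma), with 9.54, 10.76 and 9.93 at 24 h against 6.03 to 6.29 in sham skin. A fold of at least a value is the 24 h mean over the sham mean, where each sham array counts at the higher of its own reading and the lowest level called present on it. Hp, the haemoglobin-binding haptoglobin, rose by 1.44 (adjusted p = 9e-05, limma), and the complement factor Cfb by 1.65 (adjusted p = 0.000491, limma).

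Of 22 macrophage and general leukocyte genes 17 rose and none fell, where 4.27% of all genes rose, and the median was 1.55. All 22 were higher on every 24 h array than on every sham array, which held for 9.95% of all genes. Without 24 h replicate A, 11 passed. Fcgr1, the high-affinity IgG receptor of monocytes and macrophages, read 9.24, 9.25 and 9.31 on the 3 arrays at 24 h, against 6.88, 7.37, 7.98 and 7.33 on the 4 sham arrays (log2), a rise of 1.88 ± 0.27 (SE), adjusted p = 0.000302 (limma). Fcgr3, the low-affinity IgG receptor, rose by 2.37 ± 0.38 (SE), adjusted p = 0.000811 (limma), with 10.95, 10.87 and 10.63 at 24 h and 7.97 to 9.26 in sham skin. Sham replicate D was the highest sham array for both, and remained below all 24 h arrays. Fcer1g, the signalling chain these receptors share, rose by 2.02 (adjusted p = 0.00097, limma). Ms4a6d, a monocyte and macrophage membrane protein, rose by 2.61 (adjusted p = 0.00209, limma), although its other probe set differed by -0.02.

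Ccr1, Clec4n, Slfn1 and Slfn4 were also among the 15 largest rises. Ccr1, the chemokine receptor of monocytes and neutrophils, rose by 2.81 ± 0.27 (SE), adjusted p = 4.88e-06 (limma), with 10.25, 10.17 and 10.00 at 24 h and 7.12 to 7.70 in sham skin; its other probe set gave 1.93. Clec4n, the fungal-sensing lectin dectin-2, rose by 2.96 (adjusted p = 0.0019, limma). Slfn1 and Slfn4, schlafen genes of lymphoid and myeloid cells, rose by 2.88 (adjusted p = 8.8e-06) and 2.81 (adjusted p = 3.34e-05, limma). A smaller rise was that of Ptpn6, the phosphatase SHP-1 of blood cells, by 0.98 (adjusted p = 0.000899, limma).

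Of 11 neutrophil genes 3 rose and none fell, where 4.27% of all genes rose, and the median was 0.40. Fpr2, a receptor for formyl peptides and serum amyloid, read 9.99, 10.18 and 9.72 on the 3 arrays at 24 h, against 7.13, 7.32, 7.75 and 7.68 on the 4 sham arrays (log2), a rise of 2.49 ± 0.24 (SE), adjusted p = 4.88e-06 (limma). Clec4e, the lectin Mincle that is also found on macrophages, rose by 2.13 (adjusted p = 0.000447, limma), and its other probe set gave 0.54. Both showed a gap of more than 1.5 log2 units between the lowest 24 h and the highest sham array. Csf3r, the receptor for granulocyte colony-stimulating factor, rose by 1.07 (adjusted p = 0.0295, limma) but passed in 1 of 7 leave-one-out fits, that without sham replicate C. Cxcr2, the receptor for Cxcl1, Cxcl2 and Cxcl5, was called absent on all 7 arrays, as was Ltf, the neutrophil granule protein lactoferrin.

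The T and NK cell, mast cell and dendritic cell lists had medians of -0.01, 0.09 and -0.02. Of 12 T and NK cell genes 1 passed, where 5.78% of all genes passed. This was Gzmb, a granule protease of killer cells: it was absent on all 4 sham arrays and at least 2.40-fold higher at 24 h (adjusted p = 0.00332, limma). The T cell receptor chains Cd3e and Cd3g differed by -0.24 and -0.71 and did not pass (adjusted p = 0.221 and 0.152, limma). Of 9 mast cell genes none passed by limma, and none had an unadjusted p under 0.05.

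Cd207, the lectin langerin that defines Langerhans cells, fell. It read 7.78, 7.92 and 7.99 on the 3 arrays at 24 h, against 9.26, 9.15, 10.04 and 8.95 on the 4 sham arrays (log2), a log2 difference of -1.45 ± 0.23 (SE), adjusted p = 0.00074 (limma), and was 2.74-fold lower. It was called present on 1 of the 3 arrays at 24 h and on all 4 sham arrays. Epcam, an adhesion molecule of Langerhans cells that also marks other epithelial cells, differed by -0.38 and did not pass (adjusted p = 0.324, limma). Cd86, a costimulatory molecule of dendritic cells and macrophages, rose by 0.60 (adjusted p = 0.0353, limma), a call that held in 1 of 7 leave-one-out fits, that without sham replicate D.

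Of 21 interferon-response genes 15 rose and none fell, where 4.27% of all genes rose, and the median was 1.64. They rose unevenly, with the highest levels on 24 h replicate C. Each gene of the list was centred on its mean over the 23 arrays, and the members were averaged on each array to a list score. This score was 0.424 on replicate A, 0.212 on replicate B and 1.75 on replicate C at 24 h, against -0.849, -0.931, -0.431 and -1.07 on sham replicates B, C, D and E. Without 24 h replicate C, 9 members passed and the median was 1.07. Without 24 h replicate B, 20 passed.

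Gbp2, a GTPase that acts against intracellular microbes, read 9.72, 10.34 and 11.25 on the 3 arrays at 24 h, against 7.62, 7.63, 8.67 and 7.66 on the 4 sham arrays (log2), a rise of 2.55 ± 0.41 (SE), adjusted p = 0.000887 (limma). Gbp3, of the same family, rose by 1.83 ± 0.29 (SE), adjusted p = 0.000627 (limma), with 8.08, 8.08 and 9.25 at 24 h and 6.29 to 6.93 in sham skin. Oasl2, an oligoadenylate synthetase-like protein, rose by 2.54 ± 0.36 (SE), adjusted p = 0.000306 (limma), with 9.09, 8.47 and 10.32 at 24 h and 6.11 to 7.59 in sham skin. In these 3 genes replicate C was the highest 24 h array, and the other 24 h arrays still lay above the sham arrays. Cxcl9, a chemokine induced by interferon gamma, read 8.72, 9.48 and 11.00 on the 3 arrays at 24 h, against 6.91, 7.09, 7.18 and 6.77 on the 4 sham arrays (log2), a rise of 2.75 ± 0.55 (SE), adjusted p = 0.00496 (limma). Cxcl10, which shares its receptor, was far higher on replicate C than on the other 24 h arrays, with 8.14, 8.29 and 10.68 on the 3 arrays at 24 h, against 7.67, 7.23, 7.32 and 7.18 on the 4 sham arrays (log2), and its rise of 1.69 (adjusted p = 0.0256, limma) was lost without 24 h replicate C, sham replicate C or sham replicate E. Ifitm1, an interferon-induced membrane protein outside the list, rose by 2.73 ± 0.21 (SE), adjusted p = 2.06e-07 (limma), with 11.68, 11.85 and 11.41 at 24 h and 8.78 to 9.01 in sham skin.

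The promoters of Gbp2 and Gbp3 are shown because these genes rose in all 7 leave-one-out fits and carry a pair of GAAA copies with any 2 bases between them, the core of the interferon-stimulated response element. Capitals mark matches on either strand to this core or, in Gbp2 near the gene start, to the pattern described for Cxcl1. The 2 core matches of Gbp3 share letters, and this is the first of its 2 listed starts. The windows are as above (RefSeq, GRCm38.p6), for Gbp2 at chr3:142620413-142620712, plus strand, and for Gbp3 at chr3:142559794-142560093, plus strand.
Gbp2: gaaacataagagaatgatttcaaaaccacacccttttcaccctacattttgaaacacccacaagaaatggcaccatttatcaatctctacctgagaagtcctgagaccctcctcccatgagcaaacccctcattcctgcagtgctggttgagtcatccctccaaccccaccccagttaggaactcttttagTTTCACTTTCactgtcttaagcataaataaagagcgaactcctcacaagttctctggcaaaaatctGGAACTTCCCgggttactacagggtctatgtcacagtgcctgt
Gbp3: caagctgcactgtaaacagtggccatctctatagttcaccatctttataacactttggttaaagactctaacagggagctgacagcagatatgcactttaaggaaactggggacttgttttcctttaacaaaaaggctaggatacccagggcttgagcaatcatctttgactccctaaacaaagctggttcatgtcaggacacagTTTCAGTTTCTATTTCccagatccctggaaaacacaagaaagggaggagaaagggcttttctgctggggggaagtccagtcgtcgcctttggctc
The core was found in 11 of 17 listed interferon-response promoters (64.7%), in 35 of 404 promoters of genes that rose (8.66%) and in 1 of 141 promoters of genes that fell (0.709%), against 3.49% of all 27025. Among the 9654 promoters listed for measured genes the share was 3.11%.

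**Figure D2:**
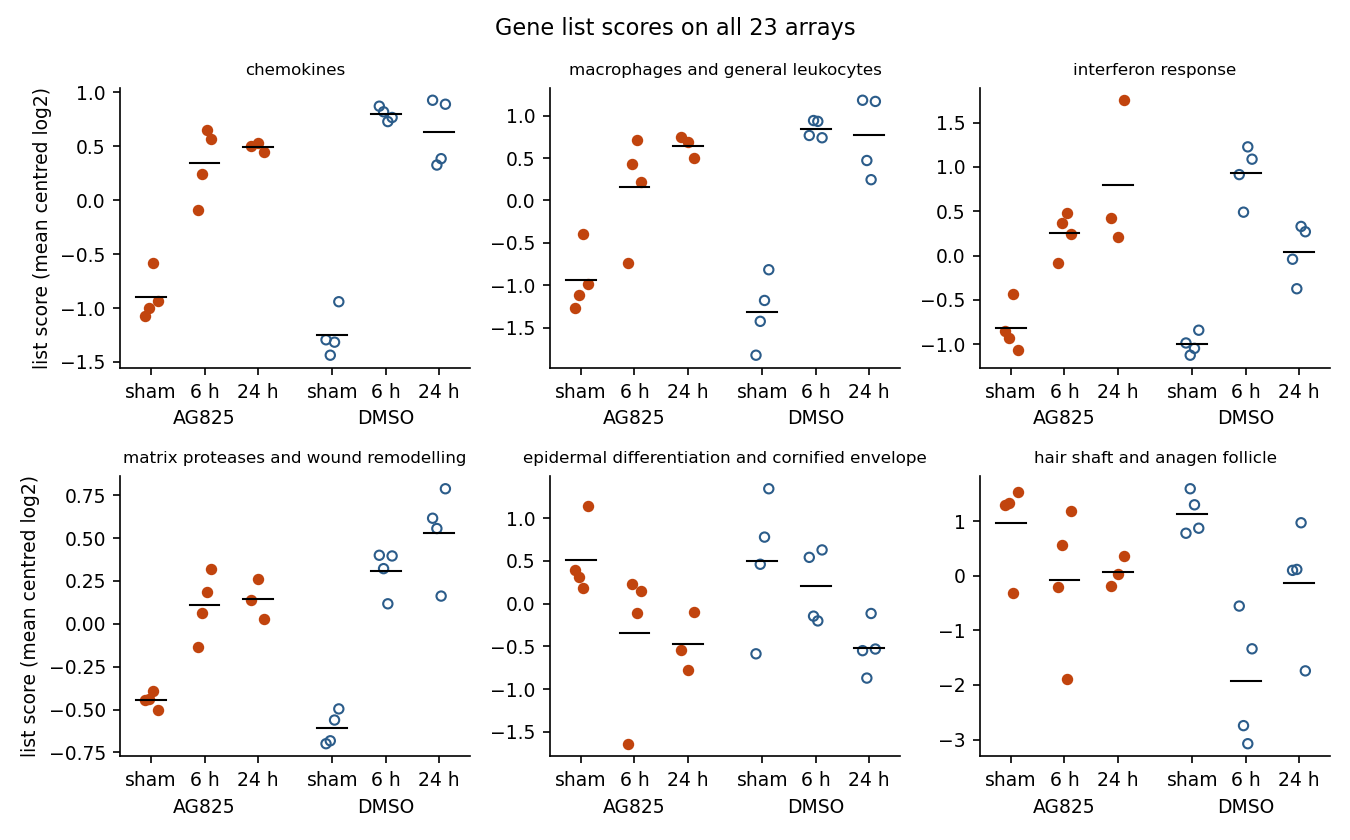
List scores (vertical axis, mean of centred log2 values) of 6 gene lists on all 23 arrays, with AG825 arrays filled on the left and DMSO arrays open on the right of each panel, ordered sham, 6 h and 24 h after UV; black bars are group means. The interferon-response score of 1.75 on AG825 24 h replicate C and the hair score of -0.307 on AG825 sham replicate D lie apart from the other arrays of their groups.

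Of 22 matrix protease and wound genes 7 rose and none fell, with a median of 0.39. Timp1, an inhibitor of metalloproteinases, read 11.88, 11.84 and 11.03 on the 3 arrays at 24 h, against 9.30, 8.94, 9.89 and 9.33 on the 4 sham arrays (log2), a rise of 2.22 ± 0.30 (SE), adjusted p = 0.000173 (limma), or 4.65-fold. Tnc, the wound matrix glycoprotein tenascin-C, read 11.40, 11.72 and 11.26 on the 3 arrays at 24 h, against 9.59, 9.55, 9.34 and 9.45 on the 4 sham arrays (log2), a rise of 1.98 ± 0.27 (SE), adjusted p = 0.000173 (limma). Both separated the groups by over 1 log2 unit. Mmp3, the protease stromelysin-1, rose by 1.61 (adjusted p = 0.000567, limma) and the aggrecan-cleaving Adamts4 by 1.15 (adjusted p = 0.00356, limma). Fibroblast and structural matrix genes had a median of 0.32 and 1 of 19 rose, near the 4.27% of all genes that rose. It was a receptor for platelet-derived growth factor, Pdgfrb (1.29, adjusted p = 0.00981, limma), whose call was lost without 24 h replicate A. Without sham replicate D, 3 passed.

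Of 16 endothelial genes 5 rose, none fell and 11 did not pass, where 4.27% of all genes rose. The median was 0.66. Selp, the endothelial selectin on which leukocytes roll, rose by 1.21 ± 0.22 (SE), adjusted p = 0.00243 (limma), with 9.11, 9.05 and 8.65 at 24 h and 7.43 to 8.02 in sham skin, although its other probe set differed by -0.06. Icam1, the adhesion molecule on which they arrest, rose by 1.06 ± 0.19 (SE), adjusted p = 0.00236 (limma), with 9.40, 9.21 and 9.40 at 24 h and 8.02 to 8.60 in sham skin. These calls held in all 7 leave-one-out fits, while the list's count was 2 without 24 h replicate A and 3 without 24 h replicate B, sham replicate B or sham replicate C.

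Of 22 immediate early and MAPK feedback genes 5 rose, where 4.27% of all genes rose, and the median was 0.29. The count was 2 without 24 h replicate A, 3 without 24 h replicate B or on GCOS signal and 8 without sham replicate D. Fos, a subunit of AP-1, read 10.44, 10.62 and 10.25 on the 3 arrays at 24 h, against 9.21, 8.80, 9.62 and 8.81 on the 4 sham arrays (log2), a rise of 1.33 ± 0.22 (SE), adjusted p = 0.00122 (limma), and Dusp6, the phosphatase that switches off ERK, rose by 1.00 (adjusted p = 0.0022, limma). Both held in all 7 leave-one-out fits. Of 17 glycolysis and hypoxia genes 6 rose, among them the hypoxia factor Hif1a (0.89, adjusted p = 0.00161, limma) and the glucose transporter Slc2a1 (1.1, adjusted p = 0.00789, limma), but 2 or 3 passed whenever any array other than sham replicate D was left out, and 2 on dChip or GCOS signal.

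For the small lists that follow, 4.27% of all genes rose and 1.51% fell. Of 23 p53 target genes 3 rose (Plk2, Pmaip1 and Ccng1) and none fell, with a median of 0.20. On dChip signal 2 rose, and none on GCOS signal at either pseudocount. Pmaip1, which promotes apoptosis, lost its call without sham replicate C or E or 24 h replicate A, and Ccng1, a cyclin, without those arrays or 24 h replicate C. Plk2, a polo-like kinase, rose by 0.85 (adjusted p = 0.00143, limma) in all 7 leave-one-out fits. Cdkn1a, the cell cycle inhibitor p21, read 11.73, 11.81 and 11.33 on the 3 arrays at 24 h, against 11.39, 11.13, 11.10 and 11.47 on the 4 sham arrays (log2), and its difference of 0.35 did not pass (adjusted p = 0.284, limma). Its arrays overlapped. Of 16 NRF2 pathway genes 3 rose, 2 fell and 11 did not pass, and none passed on dChip or GCOS signal. The factor itself, Nfe2l2, the quinone reductase Nqo1 and the ferritin chain Fth1 rose, by 0.63, 0.39 and 0.65 (adjusted p = 0.0289, 0.0432 and 0.00782, limma). The glutathione genes Gclc and Gsta2 fell by 0.93 and 1.30 on the log2 scale (adjusted p = 0.0358 and 0.0266, limma). Without 24 h replicate A none of the 5 passed. Without sham replicate B or C 1 did, 2 did without sham replicate E or 24 h replicate C, and 3 did without 24 h replicate B. Of 11 metal-handling genes 2 rose, the zinc importer Slc39a14 (0.81, adjusted p = 0.00795, limma) in all 7 leave-one-out fits but not on dChip signal and the metallothionein Mt2 (0.57, adjusted p = 0.0273, limma) in 3, not without sham replicate C or E or 24 h replicate A or B. Cyp1a1, the target of the aryl hydrocarbon receptor, gave -0.12 (adjusted p = 0.77, limma). Among 15 circadian clock genes none rose and 1 fell, Arntl, which kept its call only without sham replicate B.

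Other genes also rose in all 7 leave-one-out fits. Cyp7b1, an oxysterol hydroxylase, rose by 2.71 ± 0.46 (SE), adjusted p = 0.00118 (limma), with 9.20, 8.73 and 9.16 at 24 h and 5.46 to 7.16 in sham skin. Car4, a membrane-bound carbonic anhydrase, rose by 2.33 ± 0.26 (SE), adjusted p = 2.86e-05 (limma), with 8.82, 8.77 and 8.64 at 24 h and 6.20 to 6.51 in sham skin. Their 24 h arrays lay within 0.5 log2 units of each other. Eif4ebp1, a brake on cap-dependent translation, rose by 0.64 (adjusted p = 0.0022, limma), although its other probe set differed by -0.19.

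Called falls were fewer than called rises, except with array weights (3528 rises and 5501 falls). Counted by arrays that did not overlap, the order was the opposite, with 11.9% of all genes lower at 24 h and 9.95% higher. Of 21 measured genes of epidermal differentiation 4 fell and none rose, where 1.51% of all genes fell, and 20 of 21 had a negative difference, with a median of -1.06. Lce1a2, a late cornified envelope protein, read 9.32, 9.42 and 10.09 on the 3 arrays at 24 h, against 11.11, 10.80, 11.48 and 11.72 on the 4 sham arrays (log2), a log2 difference of -1.67 ± 0.32 (SE), adjusted p = 0.00338 (limma). It was 3.18-fold lower, and the call held in all 7 leave-one-out fits. Loricrin (Lor), the main protein of the envelope, read 11.34, 11.23 and 11.38 on the 3 arrays at 24 h, against 12.31, 12.30, 11.95 and 12.41 on the 4 sham arrays (log2), a log2 difference of -0.92 ± 0.23 (SE), adjusted p = 0.0237 (limma). Ivl (involucrin), an early envelope precursor, was absent on all 3 arrays at 24 h and at least 2.50-fold lower there than in sham skin (adjusted p = 0.0319, limma). Lor and Ivl each passed in 1 of 7 leave-one-out fits, that without sham replicate D. The list's count of falls was 1 without sham replicate B or E or any 24 h array or on GCOS signal, and 2 without sham replicate C. The suprabasal keratins Krt1 and Krt10, named here as keratinocyte markers, differed by -1.11 and -1.06 and did not pass (adjusted p = 0.163 and 0.129, limma). For both, all 24 h arrays lay below all sham arrays, which held for 11.9% of all genes.

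Other genes among the 15 largest falls were Gjb5, Serpinb7, Cldn23, Krt77 and Alox12e. Gjb5, a gap junction connexin of the epidermis, read 7.75, 7.88 and 7.93 on the 3 arrays at 24 h, against 9.30, 9.0, 9.22 and 9.19 on the 4 sham arrays (log2), a log2 difference of -1.32 ± 0.17 (SE), adjusted p = 0.000107 (limma) in all 7 leave-one-out fits. Serpinb7, an epidermal protease inhibitor, fell by 1.88 (adjusted p = 0.0116, limma), and Cldn23, a tight junction protein, fell by 1.47 (adjusted p = 0.0146, limma). Both calls were lost without 24 h replicate A or B. Krt77, a keratin of sweat ducts and upper epidermis, fell by 1.80 (adjusted p = 0.0288, limma), and Alox12e, an epidermal lipoxygenase, fell by 1.40 (adjusted p = 0.0194, limma). Krt77 lost its call without sham replicate B or C or any 24 h array, and Alox12e without 24 h replicate A or sham replicate E. Barrier lipid genes had a median of -0.33, with 1 of 12 fallen, where 1.51% of all genes fell. It was the ceramidase Acer1 (-1.09, adjusted p = 0.0284, limma), which passed in 1 of 7 leave-one-out fits, that without sham replicate D. Scd3, a fatty acid desaturase of sebaceous glands, fell by 1.30 (adjusted p = 0.0413, limma) and passed in 1 fit, that without sham replicate E. Of 18 cholesterol synthesis genes none passed by limma, 5 were lower at an unadjusted p under 0.05, 1 passed without sham replicate D, and the median was -0.24. Of 12 basal keratinocyte genes none passed by limma, 1 was lower at an unadjusted p under 0.05, and the median was -0.04. The injury keratins Krt6a and Krt16 were already at 12.4 to 13.5 and at 11.9 to 12.8 (log2) in sham skin, and their differences of 0.44 and 0.34 did not pass (adjusted p = 0.576 and 0.755, limma).

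Of 23 hair follicle genes 2 fell and none rose, where 1.51% of all genes fell. The median was -0.945, and none fell on GCOS signal. Lef1, the Wnt effector of hair matrix cells, fell by 0.90 ± 0.16 (SE), adjusted p = 0.0022 (limma), with 5.29, 5.77 and 5.64 at 24 h and 6.23 to 6.72 in sham skin, in all 7 leave-one-out fits. Gata3, a factor of the inner root sheath and epidermis, fell by 1.0 (adjusted p = 0.0188, limma), a call lost without sham replicate B or 24 h replicate A or B. Sox21, a transcription factor of the hair cuticle outside the list, read 7.31, 7.84 and 8.29 on the 3 arrays at 24 h, against 8.81, 9.08, 9.55 and 9.38 on the 4 sham arrays (log2), a log2 difference of -1.39 ± 0.26 (SE), adjusted p = 0.00296 (limma). The hair keratins were spread widely in sham skin: the list score was -0.183, 0.026 and 0.363 at 24 h and 1.29, 1.34, -0.307 and 1.54 on sham replicates B, C, D and E. Sham replicate D therefore lay below every 24 h array. Melanocyte genes had a median of -0.67, with 1 of 10 fallen, the pigment transporter Slc45a2 (-0.71, adjusted p = 0.034, limma), which passed in 1 of 7 leave-one-out fits, that without sham replicate D. Tyr, the rate-limiting enzyme of pigment synthesis, differed by -1.05 and did not pass (adjusted p = 0.0892, limma). With the hair score, which is made of the hair list itself, as a covariate, the hair median was -0.006, with 1 rise and 2 falls, and the fit called 790 probe sets. In that fit the melanocyte median was -0.42 with no falls, and 2 genes of epidermal differentiation fell.

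**Figure D3:**
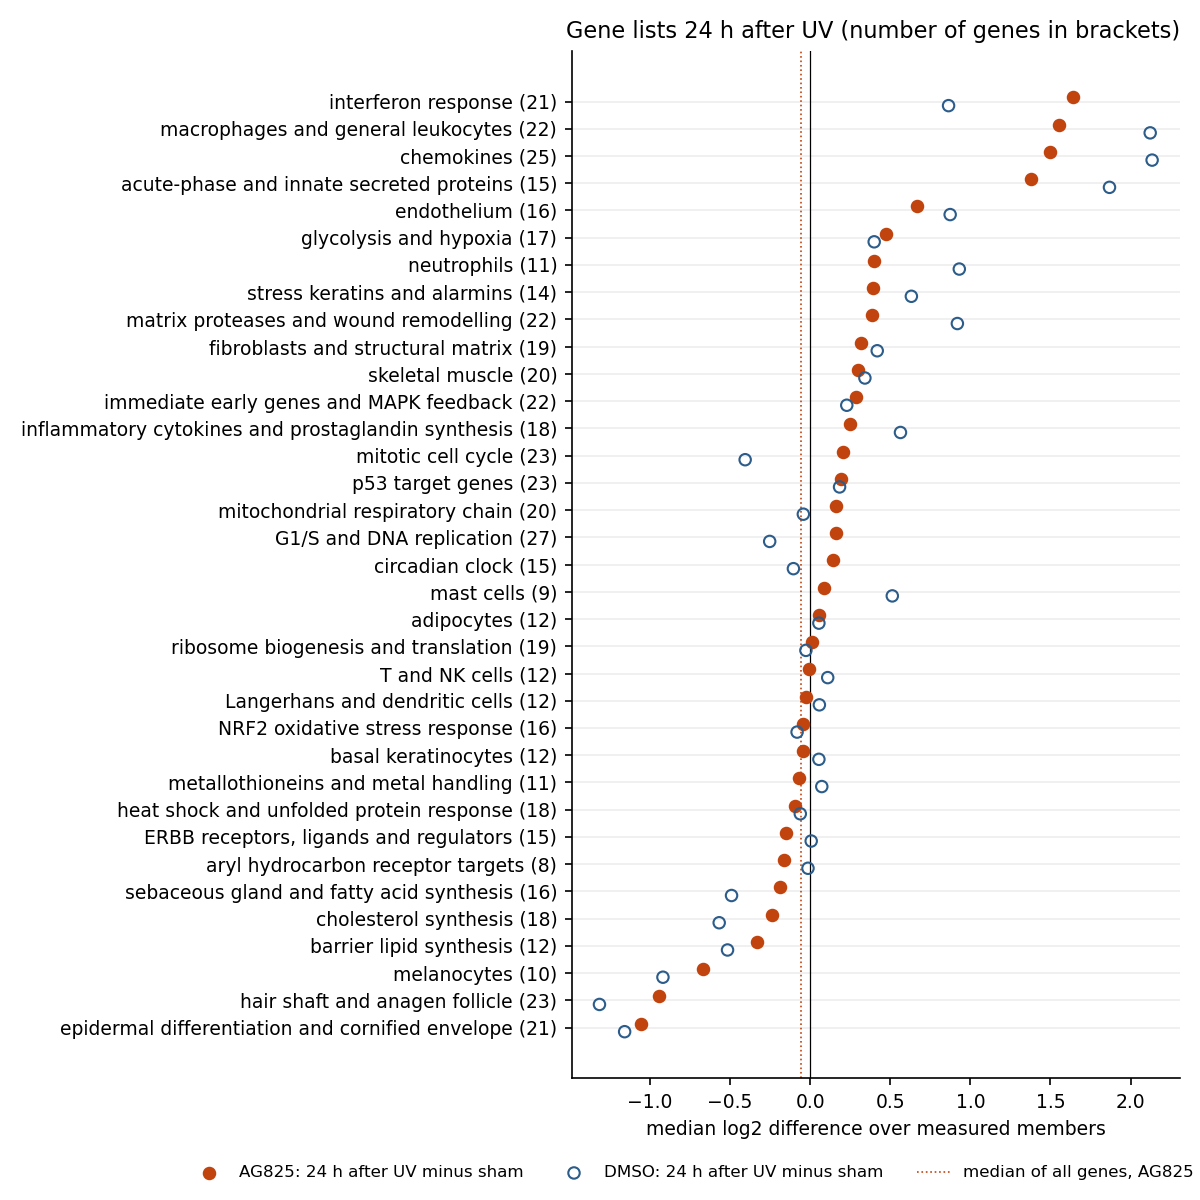
Median log2 difference, 24 h after UV minus sham (horizontal axis), over the measured members of each of 35 gene lists, with filled points for AG825 skin and open points for DMSO skin; the dotted line is the median of all genes in AG825 skin. Interferon response (1.64) and epidermal differentiation (-1.06) mark the ends of the AG825 values in this fit; without AG825 24 h replicate C the interferon median was 1.07.

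In the drug's own pathway the fit called a ligand and no receptor. Of 15 ERBB genes 1 rose and none fell, where 4.27% of all genes rose and 1.51% fell, so the count is near that share. The list median was -0.15. Epgn (epigen), a ligand of Egfr, was the risen gene: it read 10.83, 10.62 and 10.48 on the 3 arrays at 24 h, against 9.12, 9.08, 8.98 and 9.03 on the 4 sham arrays (log2), a rise of 1.59 ± 0.23 (SE), adjusted p = 0.0003 (limma), or 3.01-fold, in all 7 leave-one-out fits. Erbb2 itself read 8.19, 8.43 and 8.39 on the 3 arrays at 24 h, against 8.75, 8.74, 8.79 and 8.98 on the 4 sham arrays (log2). Its difference of -0.48 did not pass (adjusted p = 0.0899, limma). All 24 h arrays lay below all sham arrays, which held for 11.9% of all genes. Egfr and Erbb3 differed by -0.15 and -0.42 (adjusted p = 0.532 and 0.298, limma), and Erbb4 was absent on all 7 arrays. Of the remaining ligands, Tgfa gave 0.18, Hbegf 0.29, Btc -0.42, Ereg -0.34, Egf 0.12 and the Erbb4 ligand Nrg4 -0.40, with the lowest of their adjusted p-values at 0.205 (limma). Errfi1, a feedback inhibitor of these receptors, differed by 0.50 (adjusted p = 0.21, limma).

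Muscle and fat genes, which mark the deeper layers of the sample, are given for the make-up of the skin. Of 20 skeletal muscle genes none passed by limma and none had an unadjusted p under 0.05, with a median of 0.30. Of 12 adipocyte genes none passed by limma and 2 had an unadjusted p under 0.05, 1 in each direction, with a median of 0.06.

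Proliferation genes had small positive medians, 0.21 for 23 mitotic genes and 0.16 for 27 genes of G1/S and DNA replication. In each list 1 gene rose, which is near the 4.27% of all genes that rose. Without 24 h replicate C the medians were 0.098 and 0.103, and with the replicate block 0.027 and 0.057. Rrm1, the large subunit of ribonucleotide reductase, read 9.93, 9.83 and 10.05 on the 3 arrays at 24 h, against 9.19, 8.79, 9.53 and 9.29 on the 4 sham arrays (log2), a rise of 0.74 ± 0.17 (SE), adjusted p = 0.0117 (limma), which was lost without 24 h replicate A or C. Birc5 (survivin), a mitotic protein, rose by 0.86 (adjusted p = 0.0426, limma) but passed in 1 of 7 leave-one-out fits, that without sham replicate D. Mki67, the marker of cycling cells, read 9.94, 9.80 and 10.29 on the 3 arrays at 24 h, against 9.63, 9.39, 10.13 and 9.52 on the 4 sham arrays (log2) and did not pass (0.34, adjusted p = 0.555, limma). Its arrays overlapped.

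The same contrast was set beside it in DMSO skin. The DMSO comparison, 4 arrays at 24 h and 4 sham arrays, shares no array with the AG825 comparison. It called 1714 probe sets (8.72%), of which 961 rose (4.89%) and 753 fell (3.83%). Of its genes, 713 rose (5.89%) and 571 fell (4.72%). On dChip signal 935 probe sets rose and 331 fell, and on GCOS signal 691 rose and 325 fell (pseudocount 16) or 610 rose and 243 fell (pseudocount 1). Of the AG825 rises, 498 also rose in DMSO skin, which is 75.6% of the 659 AG825 rises and 51.8% of the 961 DMSO rises. Of the AG825 falls, 153 also fell in DMSO skin, 52.2% of the 293 AG825 falls and 20.3% of the 753 DMSO falls, and no probe set was called in opposite directions. Across 19645 probe sets the log2 differences of the 2 comparisons correlated at Pearson's r = 0.741 and Spearman's rho = 0.471; the points share their arrays within each comparison and are not independent. The counts rest on 3 arrays in AG825 skin and 4 in DMSO skin at 24 h, so their sizes do not compare the strength of the responses.

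The test of the difference itself, the interaction of drug and UV, called 1 probe set of 19645 (0.00509%), or 1 gene of 12106 (0.00826%), Tmem14c, which was lower in AG825 skin (limma); 1049 had an unadjusted p under 0.05 (5.34%), and the next lowest adjusted p was 0.855. Tmem14c, a mitochondrial inner membrane protein needed for haem synthesis in red cell precursors, read 7.82, 8.19 and 7.21 on the 3 arrays at 24 h, against 9.80, 9.54, 10.55 and 10.46 on the 4 sham arrays (log2) in AG825 skin. It fell there, with a log2 difference of -2.35 ± 0.35 (SE), adjusted p = 0.000417 (limma), in all 7 leave-one-out fits, and gave 0.75 in DMSO skin (adjusted p = 0.181, limma). The DMSO sham arrays were split, with 8.40 and 8.67 on replicates A and B and 9.96 and 9.75 on replicates C and D. The DMSO arrays at 24 h read 9.67 to 10.60. The interaction of -3.10 (adjusted p = 0.0364, limma) held in 4 of 15 leave-one-out fits, those without AG825 24 h replicate B, AG825 sham replicate C, or DMSO sham replicate C or D. On GCOS signal, with only the compared groups in the fit, with the replicate block and with percent present as a covariate it did not pass.

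**Figure D4:**
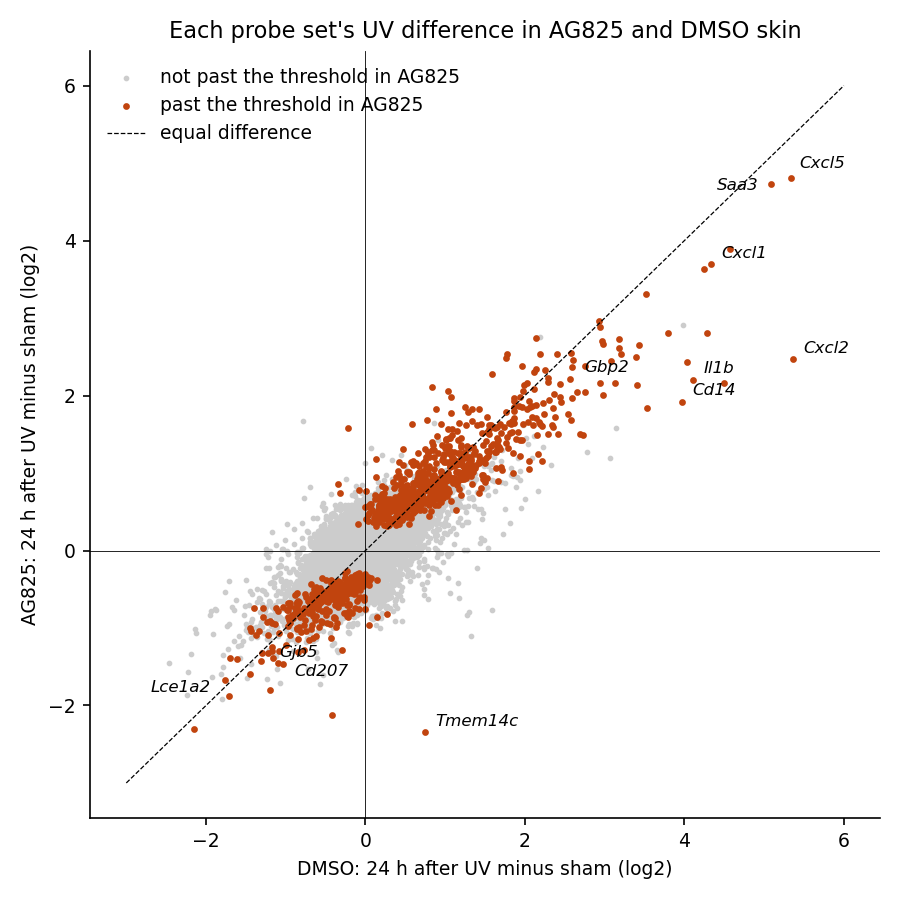
Log2 difference between 24 h after UV and sham of each of 19645 probe sets in AG825 skin (vertical axis) and in DMSO skin (horizontal axis), with probe sets called in AG825 skin in colour and the line of equal differences dashed. Of the 659 called rises, 498 were also called in DMSO skin, Cxcl2 (2.47 in AG825 skin and 5.36 in DMSO skin) lies below the line, and Tmem14c (-2.35 in AG825 skin and 0.75 in DMSO skin) lies at the lower right.

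None of the following differences between AG825 and DMSO skin passed the adjusted threshold, and they are given as values. Several inflammatory genes had a smaller difference in AG825 skin: Cxcl2 gave 2.47 in AG825 skin and 5.36 in DMSO skin (interaction -2.90, unadjusted p = 0.000651), and Il1b gave 2.21 in AG825 skin and 4.10 in DMSO skin (interaction -1.90, unadjusted p = 0.000389). Cd14, the endotoxin co-receptor of monocytes, gave 1.92 in AG825 skin and 3.97 in DMSO skin (interaction -2.05, unadjusted p = 9.46e-05), and Ccl3 gave an interaction of -1.88 (unadjusted p = 0.000703). Rrm1 had the opposite order, 0.74 in AG825 skin and -0.31 in DMSO skin (interaction 1.05, unadjusted p = 0.000139). Adjusted over all probe sets, each of these interactions was at 0.855 (limma). The list medians in AG825 and DMSO skin were 1.495 and 2.13 for chemokines, 1.55 and 2.12 for macrophages, and 1.64 and 0.86 for interferon response. Mean list scores in AG825 and DMSO sham skin were -0.898 and -1.25 for chemokines and -0.939 and -1.31 for macrophages. At 24 h these scores were 0.494 and 0.633 for chemokines and 0.647 and 0.766 for macrophages. For both lists the 2 drug groups thus lay further apart in sham skin than at 24 h. These scores were not tested. Without AG825 24 h replicate C the AG825 interferon median was 1.07. The medians in AG825 and DMSO skin were 0.21 and -0.405 for mitotic genes and 0.16 and -0.25 for G1/S genes. Unadjusted interaction p (limma) was under 0.05 in 12 of 23 mitotic and 12 of 27 G1/S genes, with median interactions of 0.58 and 0.465. The same held for 6 of 11 neutrophil and 8 of 22 matrix genes, with medians of -0.72 and -0.41. Among all probe sets the share was 5.34%. Members of a list share arrays and are not independent.

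**Figure D5:**
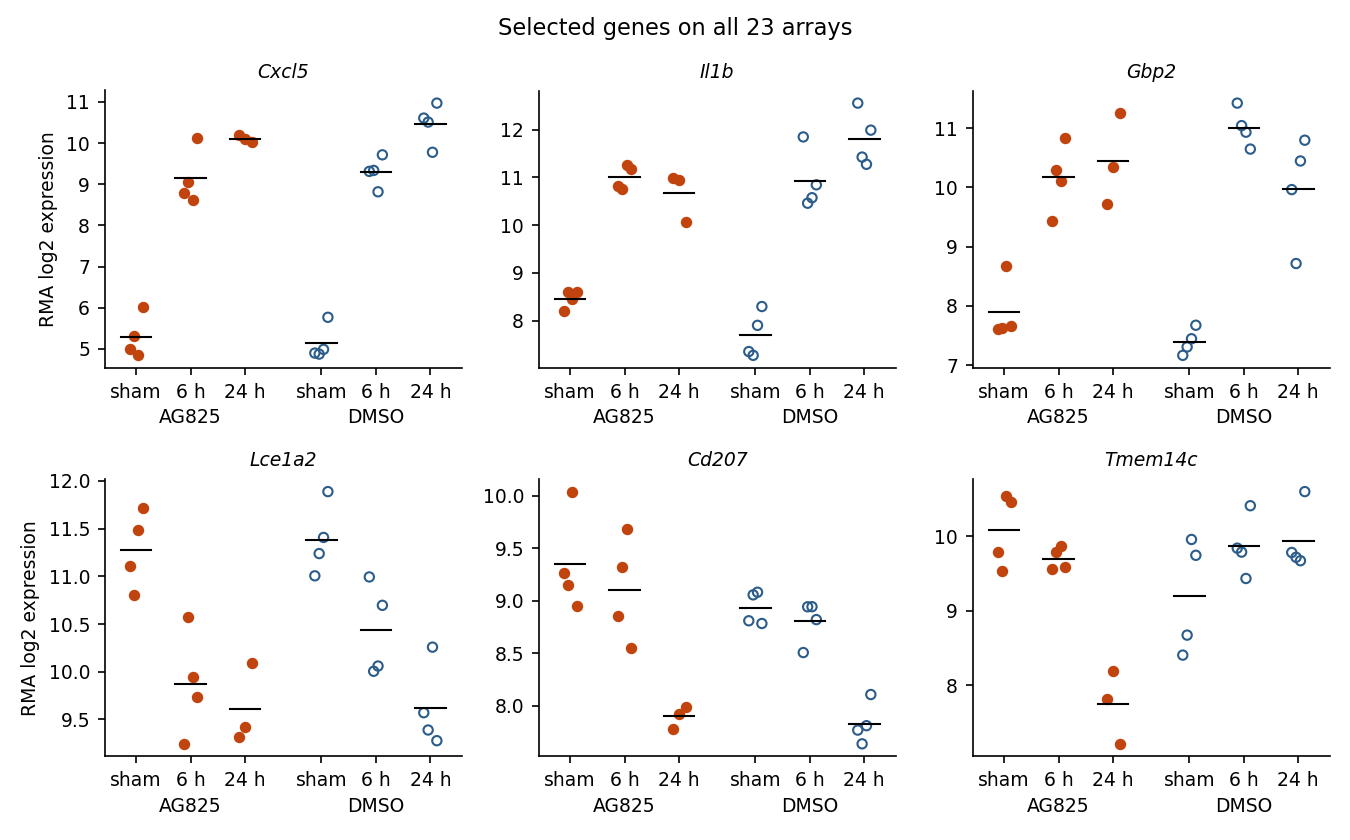
RMA log2 expression (vertical axis) of 6 genes on all 23 arrays, with AG825 arrays filled on the left and DMSO arrays open on the right of each panel, ordered sham, 6 h and 24 h after UV; black bars are group means. Tmem14c is low on the 3 AG825 arrays at 24 h (7.21 to 8.19), and Cd207 is low at 24 h in both drug groups.

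Within AG825 skin, 24 h was also compared with 6 h after UV, a contrast that uses the same 24 h arrays but no sham array, so its values are not independent of those above. It called 45 probe sets (0.229%), 32 higher (0.163%) and 13 lower (0.0662%), and 37 genes (0.306%), 25 risen (0.207%) and 12 fallen (0.0991%). The count was 0 without 24 h replicate A or 6 h replicate A, 1 without 24 h replicate B or C, 6 without 6 h replicate E and 89 without 6 h replicate B. The genes named next lost their calls without each of the 24 h arrays and without 6 h replicate A. Cd207 was lower at 24 h than at 6 h (-1.21, adjusted p = 0.0391, limma), as was Tmem14c (-1.96, adjusted p = 0.034, limma), and Hspb1, a small heat shock protein, was lower by 0.63 on the log2 scale (adjusted p = 0.0185, limma). Cxcr4 was higher at 24 h than at 6 h by 1.05 and Cxcl12 by 1.03 (adjusted p = 0.034 and 0.0401, limma), and Car4 by 1.38 (adjusted p = 0.0391, limma). The large inflammatory rises showed no called difference between the times: Cxcl5 differed by 0.97 (adjusted p = 0.12), Cxcl1 by 0.10 (adjusted p = 0.89), Il6 by 0.08 (adjusted p = 0.926) and Il1b by -0.34 (adjusted p = 0.513, limma).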

How the data were processed

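RNA of mouse dorsal skin was measured on 23 one-colour Affymetrix expression arrays in 6 groups. The authors deposited a table of log2 values. The submitters' processing notes name RMA as its method; its version is not given in the sources used here. Per the file headers they also deposited dChip signal (22690 rows, of which 64 are control probe sets and 2981 others are not in the log2 table) and GCOS signal (22 arrays, without DMSO 6 h replicate G). The log2 values were used as deposited.

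All 23 arrays entered one linear model per probe set, with 6 group means (19645 probe sets, limma 3.58.1 in R 4.3.3, lmFit and eBayes, 20.75 degrees of freedom), so that all groups share one estimate of the spread. Calls were made at a Benjamini-Hochberg adjusted p under 0.05 over all probe sets. Probe sets were named from the platform annotation updated by gene identifier: 17825 name 1 gene, 445 several and 1375 none. Counts of genes use, for each of 12106 genes, the probe set with the highest mean. Present calls are those of the dChip table. Fits left out each array in turn, or used the other summaries, a replicate block, covariates, array weights or a filter on dim probe sets. The script was tested on simulated data.

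Named genes are the 15 largest rises and 15 largest falls whose 7 arrays do not overlap, up to 4 members of each of 35 lists by adjusted p (586 of 671 listed genes were measured), all chemokine and ERBB genes, a few fixed genes, and up to 10 genes in each direction of the other contrasts. Members and lists were chosen with earlier results of these data known. The number of arrays limits the precision.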

Additional observations from a re-analysis of the deposited data

Results flagged for a closer look

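Of 255 sets of 4 AG825 sham values (named genes and list scores), 24 (9.41%) held a value far from the other 3 by Dixon's test, where chance gives about 1 in 20. Sham replicate D held 16 of them, sham replicate E 4 and sham replicates B and C 2 each. On sham replicate D the log2 values were high for Cd14 (9.08), Cd36 (11.03), Cyp1a1 (9.51), Gbp2 (8.67), Lox (10.05), Pf4 (11.31), Thy1 (11.06) and Vim (12.85). They were low there for Csf3r (7.55), Hbegf (7), Lrig1 (7.14) and Tgfa (9.01). Its list scores were high for sebaceous genes (0.46), fibroblasts (0.22) and aryl hydrocarbon receptor targets (0.34) and low for hair (-0.31).

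On sham replicate E, S100a9 (13.25), Saa3 (10.16) and Hspb1 (13.41) were high and Car4 (6.2) was low. On sham replicate B, Hspa1b was high (11.74) and Gfra2 low (7.71), and on sham replicate C, Aen (9.24) and Cd3e (9.14) were low. None of these sham values reached the 24 h arrays for Cd14, Gbp2, Saa3 or Car4, while S100a9 on replicate E lay among them.

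The difference between 24 h and sham differed between AG825 and DMSO skin for Tmem14c by the interaction term (-3.1 on the log2 scale, adjusted p = 0.0364, limma), with -2.35 in AG825 skin and 0.75 in DMSO skin. This call was lost in most leave-one-out fits and on GCOS signal, as given above.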

How the results depend on the processing

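The number of probe sets called between 24 h and sham in AG825 skin, 952 as reported, was 625 on dChip signal, 467 and 380 on GCOS signal (pseudocounts 16 and 1) and 9029 with array weights, which gave 24 h replicate A a weight of 7.65 and sham replicate D 0.375. With only the compared groups in the fit it was 928, of which 675 were among the 952. Leaving out 1 array gave 333 to 1670. The share of rises among calls was 69.2% as reported and 85.9% on GCOS signal (401 rises and 66 falls), but 39.1% with array weights (3528 rises and 5501 falls), where falls outnumbered rises. In DMSO skin, 1714 as reported, the count was 1016 and 853 on GCOS signal and 2802 with array weights, and 975 to 1934 with 1 array left out. The share of rises there was 56.1% as reported and 73.9% on dChip signal (935 rises and 331 falls), but 49.8% with array weights (1396 rises and 1406 falls). The interaction count of 1 was 0 on GCOS signal at both pseudocounts, with only the compared groups, with the replicate block and with percent present as a covariate, 124 with array weights, and 0 to 1 with 1 array left out. The 45 probe sets between 24 h and 6 h became 16 on dChip signal, 1 and 5 on GCOS signal, 0 with only the compared groups or with percent present, 251 with the replicate block, 250 with the hair score, 26 with a trended robust variance, 3543 with array weights, and 0 to 89 with 1 array left out. The causes were not tested.

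Same-lettered 24 h and sham arrays were too few to show whether the replicate letters pair the samples. Their deviations correlated at 0.255 (B) and -0.043 (C), and those of differently lettered arrays at -0.341 to 0.228. The replicate block gave 1419 calls between 24 h and sham in AG825 skin and 2422 in DMSO skin. Fkbp11, absent on all 7 arrays, had -0.34 as reported and 0.206 and 0.203 on GCOS signal. The 8 lists with a median of at least 0.5 in size kept its sign in every alternative run, but the hair median of -0.945 was -0.006 with the hair score as a covariate; some of these alternatives were chosen after seeing the data. No scaling moved the median of all probe sets by over 0.1.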
